A study of Rattus norvegicus with 15 samples.

Results

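The Toll-like receptors Tlr1, Tlr2, Tlr3, Tlr4, Tlr6, Tlr7 and Tlr9, their co-receptors Cd14 and Ly96 and the shared adaptor Myd88 were followed in rat kidneys after transplantation. These 10 genes were chosen by name, and a probe set counted for a gene when the array annotation gave it that gene symbol alone. Of the 10 genes, 7 were measured, each by 1 probe set, out of 31042 probe sets tested and 14217 genes named on the Affymetrix Rat Genome 230 2.0 array. These were Tlr1 (1384946_at), Tlr2 (1392280_at), Tlr4 (1387982_at), Tlr7 (1382531_at), Cd14 (1368490_at), Ly96 (1382277_at) and Myd88 (1374468_at). Tlr3, Tlr6 and Tlr9 were not analysed here.

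Total RNA of 15 kidneys of male rats aged 10 to 12 weeks was hybridised, with 1 array per kidney. In the acute group (aTX, n = 5), kidneys of Lewis Brown Norway (LBN) rats were grafted into Lewis (LEW) rats, and in the syngeneic group (sTX, n = 5) LBN kidneys were grafted into LBN rats. Both groups of recipients lost their own kidneys at surgery and received no immunosuppression, and the graft was removed on day 4. The control group (ctr, n = 5) was native LBN kidneys, described as the second kidney of donor rats. A control and a graft may therefore come from 1 donor, and no label ties them. The strains follow the series description, and the source labels give Lewis donors for both graft groups. A treatment label calls sTX 4 and sTX 5 allogeneic, against their titles, and they were kept as syngeneic.

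Toll-like receptors sense conserved microbial molecules and molecules set free by damaged tissue. Tlr1, Tlr2, Tlr4 and Tlr6 sit at the cell surface, where Tlr2 pairs with Tlr1 or Tlr6 for lipopeptides, while Tlr3, Tlr7 and Tlr9 sense nucleic acids in endosomes. Cd14 hands lipopolysaccharide to Tlr4, which binds it together with Ly96, also called MD-2. Most of these receptors signal through the adaptor Myd88 to NF-kappaB, and through interferon regulatory factors to interferons, whereas Tlr3 uses Ticam1 and Tlr4 uses both. In the kidney they are found on resident and infiltrating myeloid cells and also on tubular cells.

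The promoters of Tlr2, Cd14 and Myd88 are shown because Tlr2 and Cd14 had the largest changes in aTX against ctr, and Myd88 the smallest, among the 7 genes. Each is the 250 bases before the start of the gene in RefSeq, read 5′ to 3′ on the strand of the gene (GRCr8, all on the minus strand). Tlr2 lies at chr2:171504558-171504807, Cd14 at chr18:28611159-28611408 and Myd88 at chr8:127956231-127956480. Capitals mark matches to the NF-kappaB consensus in Tlr2, to the PU.1 core GAGGAA in Cd14 and to the interferon response element GAAANNGAAA in Myd88.
Tlr2: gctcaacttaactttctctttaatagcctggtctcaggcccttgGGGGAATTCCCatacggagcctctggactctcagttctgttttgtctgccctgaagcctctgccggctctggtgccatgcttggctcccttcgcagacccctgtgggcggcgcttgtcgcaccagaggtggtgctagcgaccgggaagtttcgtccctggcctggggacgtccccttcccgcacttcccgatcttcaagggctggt
Cd14: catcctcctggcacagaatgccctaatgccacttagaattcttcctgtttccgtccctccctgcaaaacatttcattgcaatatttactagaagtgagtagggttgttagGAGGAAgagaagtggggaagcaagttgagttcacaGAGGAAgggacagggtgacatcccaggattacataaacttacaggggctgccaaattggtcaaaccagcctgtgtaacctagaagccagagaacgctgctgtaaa
Myd88: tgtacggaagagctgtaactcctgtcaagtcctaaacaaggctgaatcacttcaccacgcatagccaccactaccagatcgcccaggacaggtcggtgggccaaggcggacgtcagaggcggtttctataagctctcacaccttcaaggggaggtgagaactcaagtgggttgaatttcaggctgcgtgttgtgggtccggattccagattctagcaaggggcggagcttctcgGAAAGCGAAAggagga
Both strands were searched. The Tlr2 promoter held 2 overlapping NF-kappaB matches, which begin at positions -206 and -205 from the start, and 3.54% of 33469 RefSeq promoters of the same length held at least 1. The Cd14 promoter held 2 PU.1 cores, beginning at -140 and -105, and the core was present in 23.3% of all promoters. Among the promoters of the genes followed here, 9 were matched, and the PU.1 core was found in 6 of them. These were Tlr4, Tlr7 and Cd14, and also Tlr3, Tlr6 and Tlr9, whose signals were not analysed. The promoters of Tlr1, Tlr2 and Myd88 held no PU.1 core. Of the same 9 promoters, 1 held the NF-kappaB consensus, 1 the interferon response element and 2 an AP-1 match. The Myd88 promoter held an interferon response element at -16 to -7, a match present in 3.41% of all promoters, and an AP-1 match (TGANTCA), present in 6.34%. A match describes letters in this window and does not show binding.

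All 7 measured genes were higher in aTX than in ctr, with no overlap between the groups. Tlr2 and Cd14 had the largest fold changes, 13.9 and 13.4, and Myd88 the smallest at 2.82. Higher calls made up 20.2% of all probe sets in this comparison, and 16.4% had all aTX arrays above all ctr arrays. Across the 7 probe sets the median log2 change was 3.20, and over all probe sets it was -0.08. A call means an adjusted p below 0.05 by limma over all probe sets, and signals are MAS5 intensities in arbitrary units.

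**Figure D1:**
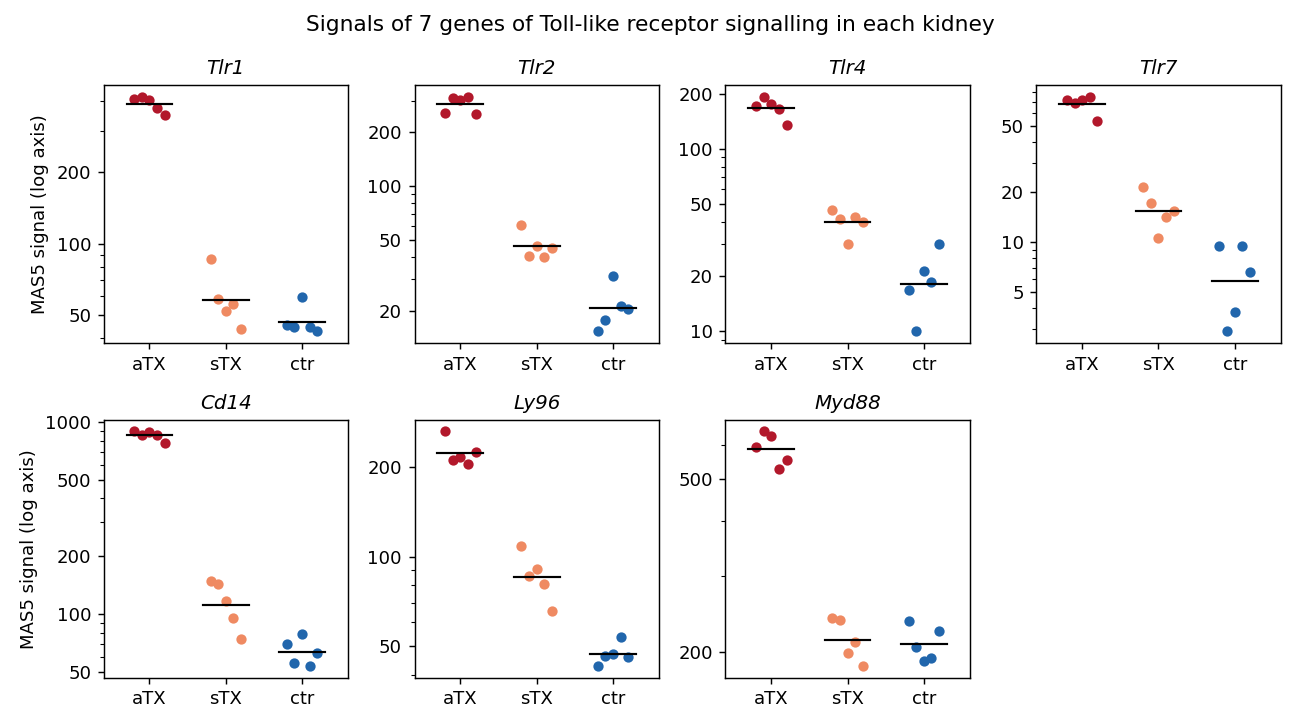
MAS5 signals (log axis) of the 7 measured genes in each kidney. Points are single arrays (n = 5 per group), in the order of their numbers, and lines are geometric means. All aTX points lie above all sTX and ctr points in every panel, while sTX and ctr points overlap for Tlr1, Tlr4, Cd14 and Myd88.

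Among the cell-surface receptors, Tlr2, which recognises lipopeptides, had signals of 256, 312.2, 303.4, 316.3 and 253 in aTX 1 to 5, against 15.4, 17.9, 31.2, 21.4 and 20.6 in ctr 1 to 5. The lowest allogeneic graft was thus far above ctr 3, the highest control. The fold change was 13.9 (95% confidence interval 11 to 17.5; log2 change 3.79 ± 0.16 SE; adjusted p = 2.48e-13, limma). Tlr1, the partner of Tlr2 for triacylated lipopeptides, had signals of 408.1, 417.7, 405.2, 374.2 and 350.2 in aTX 1 to 5, against 45.3, 44.3, 59.6, 44.4 and 42.7 in ctr 1 to 5. Apart from ctr 3, the controls lay close together. Tlr1 was 8.32-fold higher (6.81 to 10.2; adjusted p = 6.67e-13, limma). Tlr4, the lipopolysaccharide receptor, had signals of 173.1, 193.8, 175.6, 165.9 and 134.7 in aTX 1 to 5, against 16.9, 10, 21.4, 18.6 and 30 in ctr 1 to 5. Here aTX 5 was the lowest graft and ctr 5 the highest control, with a gap between them. Tlr4 was 9.18-fold higher (6.77 to 12.5; adjusted p = 1.27e-10, limma).

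The co-receptors of Tlr4 moved in the same direction. Cd14 had signals of 892.3, 859.4, 886.9, 852.6 and 774.4 in aTX 1 to 5, against 70.3, 55.5, 78.5, 53.8 and 62.6 in ctr 1 to 5. The allogeneic grafts were alike, with a mean of 853 ± 47.2 (SD, n = 5), and the control mean was 64.1 ± 10.3. This gave a fold change of 13.4 (10.8 to 16.7; adjusted p = 1.26e-13, limma). Ly96, the secreted partner without which Tlr4 does not bind lipopolysaccharide, had signals of 264.3, 212.3, 216, 204.8 and 226.1 in aTX 1 to 5, against 42.8, 46.4, 46.9, 53.4 and 46 in ctr 1 to 5. Its fold change was 4.76 (4.04 to 5.62; adjusted p = 2.82e-12, limma), and no graft came near the controls.

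Tlr7, the endosomal receptor for single-stranded RNA, had signals of 71.7, 68.8, 71.9, 75 and 53.4 in aTX 1 to 5, against 9.5, 2.9, 3.8, 9.5 and 6.6 in ctr 1 to 5. The groups were separate, but every control value lay below the median signal of its array, which was 24.3 to 26.75 in ctr, so the size of the ratio depends on dim signals. The fold change was 11.7 (7.43 to 18.3; adjusted p = 8.74e-09, limma), with the widest interval of the 7 genes. With 16 added to every signal, which shrinks ratios of dim signals, the log2 change was 1.91 for Tlr7, 3.04 for Tlr2 and 2.40 for Tlr4, and with signals below 16 set to 16 it was 2.08 for Tlr7.

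Myd88, the adaptor, had signals of 593.2, 645.6, 629.2, 528 and 554.9 in aTX 1 to 5, against 235.4, 204.9, 190.1, 193.8 and 223.7 in ctr 1 to 5. The lowest allogeneic graft, aTX 4, was above the highest control, ctr 1. Myd88 was 2.82-fold higher (2.49 to 3.19; adjusted p = 1.45e-11, limma). Its estimate had the narrowest interval of the 7 genes.

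The syngeneic grafts, which share the surgery and ischaemia but not the strain mismatch, were set against ctr to show the change without rejection. Of the 7 genes, 5 were higher in sTX than in ctr (Tlr2, Tlr4, Tlr7, Cd14 and Ly96), with fold changes of 1.76 to 2.64, and Tlr1 and Myd88 were not called. Higher calls made up 11.4% of all probe sets in this comparison. The median log2 change was 0.86 over the 7 genes and 0.09 over all probe sets. For 3 genes (Tlr2, Tlr7 and Ly96) all sTX arrays lay above all ctr arrays, as they did for 8.44% of all probe sets.

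Tlr2 had signals of 60.8, 40.7, 46, 39.9 and 45.2 in sTX 1 to 5, all above the highest control at 31.2. The fold change against ctr was 2.22 (1.76 to 2.8; adjusted p = 3.26e-05, limma). Tlr4 had signals of 46.3, 41.1, 30, 42.3 and 39.6 in sTX 1 to 5, and sTX 3 met ctr 5 at 30. Tlr4 was 2.16-fold higher (1.59 to 2.93; adjusted p = 0.00079, limma). Tlr7 had signals of 21.3, 17.1, 10.5, 14.2 and 15.4 in sTX 1 to 5, above the controls, although sTX 3 was close to the highest of them at 9.5. The fold change was 2.64 (1.68 to 4.14; adjusted p = 0.0032, limma), and with signals below 16 set to 16 it was not called (log2 change 0.10, adjusted p = 0.635).

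Cd14 had signals of 149.3, 142.9, 116.6, 95.6 and 74.2 in sTX 1 to 5, and sTX 5 lay below the highest control, ctr 3 at 78.5. Against ctr Cd14 was 1.76-fold higher (1.42 to 2.19; adjusted p = 6e-04, limma). Ly96 had signals of 108.3, 85.9, 90.6, 80.7 and 65.5 in sTX 1 to 5, all above ctr. Ly96 was 1.81-fold higher (1.54 to 2.14; adjusted p = 2.09e-05, limma).

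Tlr1 had signals of 86.1, 58.4, 52, 55.4 and 43.7 in sTX 1 to 5, and 4 of these 5 lay within the range of ctr. Its fold change against ctr was 1.23 (1 to 1.5; adjusted p = 0.16, limma), and it was called without sTX 5 (log2 change 0.40, adjusted p = 0.0474) and without sTX 4 and sTX 5 (log2 change 0.45, adjusted p = 0.0449). Other alternatives lowered it, to a log2 change of 0.10 with each array centred on its median (adjusted p = 0.691, limma) and 0.15 without sTX 1. Myd88 had signals of 239, 236.2, 198.2, 210.4 and 185.5 in sTX 1 to 5, spread across the controls. Its fold change was 1.02 (0.901 to 1.15; adjusted p = 0.879, limma), and its log2 change was -0.17 with each array centred on its median. These intervals leave room for a Tlr1 rise of 1.5-fold and for a Myd88 change of up to 1.15-fold.

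Arrays were split into 2 runs by the hybridisation time in the instrument records, the first being before noon. All sTX arrays and no ctr array were in the second run, and the aTX arrays were split 3 and 2 between the runs. With the run as a block, 1 of the 7 genes, Tlr2, was still called in sTX against ctr (log2 change 1.44, adjusted p = 0.00558, limma), and no value within a run exists for this comparison. The adjusted p was then 0.061 for Tlr4, 0.142 for Tlr7, 0.0915 for Cd14 and 0.0866 for Ly96, while their log2 changes were 1.33, 1.61, 0.88 and 0.64. The block also lowered the number of other pathway genes called in this comparison, as given below. The share of all probe sets called with the block is not given here, so the count of 1 is not a result about these genes. In aTX against ctr and aTX against sTX, all 7 genes were called with the block and also within 1 run.

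**Figure D2:**
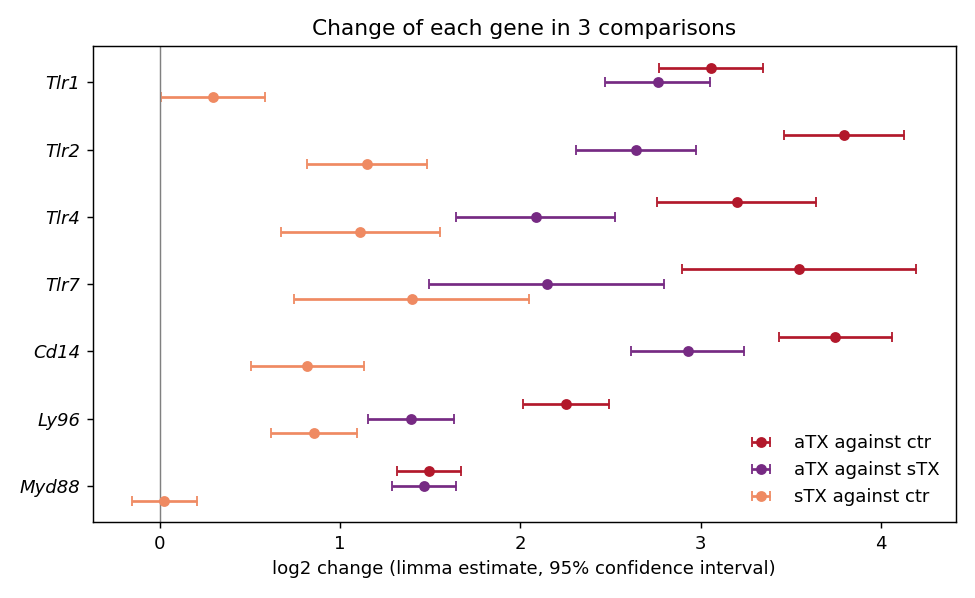
log2 changes (limma) of the 7 genes in aTX against ctr, aTX against sTX and sTX against ctr, with 95% confidence intervals as bars. Both aTX comparisons lie right of 0 for all genes, and the interval of Myd88 in sTX against ctr spans 0.

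All 7 genes were higher in aTX than in sTX, again with no overlap, where 13.9% of all probe sets were called higher and 12.1% had all aTX arrays above all sTX arrays. This comparison sets rejecting grafts against grafts that had the same operation. Cd14 had a fold change of 7.61 (log2 change 2.93, adjusted p = 1.05e-11, limma) and Tlr1 one of 6.78 (2.76, adjusted p = 7.66e-12). The fold change was 6.24 for Tlr2 (2.64, adjusted p = 9.01e-11), 4.43 for Tlr7 (2.15, adjusted p = 1.28e-05) and 4.24 for Tlr4 (2.09, adjusted p = 1.26e-07). Myd88 and Ly96 had the smallest differences, 2.77-fold (1.47, adjusted p = 5.23e-11) and 2.63-fold (1.40, adjusted p = 6.6e-09). The median over the 7 genes was 2.15, and over all probe sets it was -0.18.

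The order of the groups differed between genes in its lower steps. For Tlr2, Tlr7 and Ly96 all aTX kidneys were above all sTX kidneys and these above all ctr kidneys. For Tlr4 and Cd14 the test separated sTX and ctr although single kidneys overlapped. Tlr1 and Myd88 were high in aTX alone, at 391 ± 28.1 and 590 ± 49.3. Their means were 59.1 ± 16.1 and 214 ± 23.4 in sTX, and 47.3 ± 6.96 and 210 ± 19.5 in ctr (SD, n = 5 each). Neither was called in sTX against ctr, with an unadjusted p of 0.0455 for Tlr1 and 0.753 for Myd88 (limma).

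Within the syngeneic group sTX 1 had the highest signal of its group for 7 of the 7 genes, with a mean log2 deviation of 0.38 from the group, although its lead was small for Myd88 (239 against 236.2 in sTX 2) and Cd14 (149.3 against 142.9 in sTX 2). At the other end sTX 5 was the lowest for 4 of the 7. In the acute group aTX 5 was the lowest for 5 genes (mean deviation -0.17), and among the controls ctr 2 had the lowest mean deviation, -0.34. Without sTX 1 the same 5 genes were called in sTX against ctr, with log2 changes of 1.05 for Tlr2, 1.06 for Tlr4, 1.28 for Tlr7, 0.72 for Cd14 and 0.77 for Ly96.

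**Figure D3:**
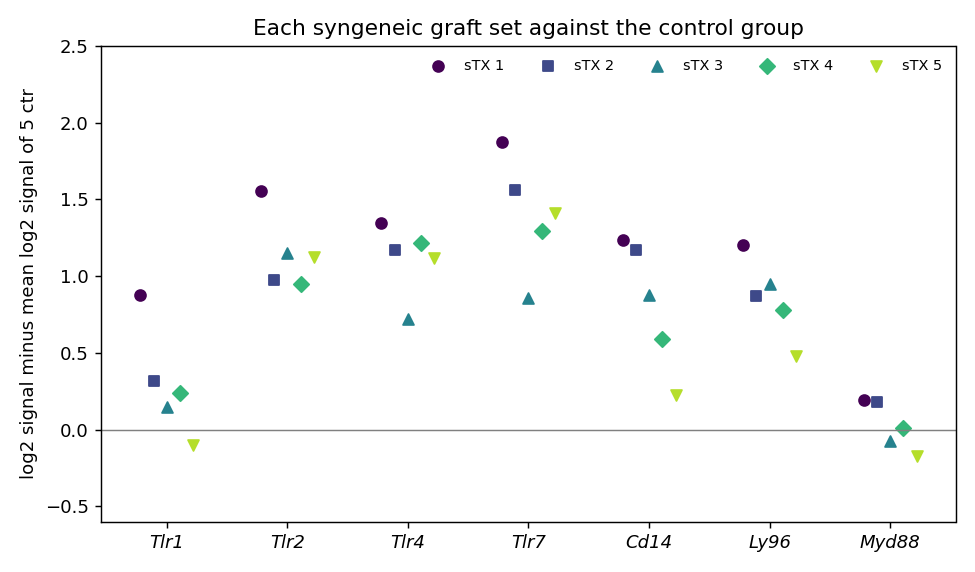
log2 signal of each syngeneic graft minus the mean log2 signal of the 5 control kidneys (grey line at 0), for the 7 genes. Symbols stand for sTX 1 to 5. The sTX 1 symbol is the highest for all 7 genes, and the Myd88 symbols lie on both sides of 0.

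Markers of several other cell types also differed between the groups. The summed signal of 4 pan-leukocyte genes (Ptprc, Coro1a, Lcp1 and Laptm5) was 4211.7 to 5172.3 in aTX, 648.7 to 988.4 in sTX and 446.5 to 526 in ctr. The sum of 9 of 10 macrophage and monocyte genes was 7564.8 to 9683.3 in aTX, 3003.2 to 4367.9 in sTX and 1817.8 to 2325.2 in ctr, and sTX 1 had the highest value of its group in both sums. Of these 9 genes, 9 were higher in aTX and 8 in sTX against ctr. Between the 2 graft groups, 7 of them were higher in aTX, 1 was lower and 1 was not called. The lower one was Adgre1, with means of 82.3 in aTX and 116 in sTX (adjusted p = 0.00305, limma). Mrc1 was not called, with means of 106 and 96.4. The brightest was Lyz2, with means of 4920 in aTX, 2890 in sTX and 1820 in ctr, so it weighs most in the sum. These 3 genes are named because of their values. The neutrophil sum (5 of 9 genes) was 270.5 to 586.4 in aTX, 34.3 to 141 in sTX and 20 to 34.1 in ctr, and the T cell sum (8 of 8) was 1861.5 to 2921.2 in aTX, 222 to 354.7 in sTX and 124.3 to 203.7 in ctr. Proximal tubule markers, 8 of 8 of them measured, marked all samples as kidney, with a sum of 8553.7 to 11773.7 in aTX, 16953.2 to 19953.5 in sTX and 18440.2 to 24128.7 in ctr. Fibroblast and pericyte markers (5 of 5) summed to 2567.5 to 3768.4 in aTX, 3312.5 to 3882.3 in sTX and 1282.2 to 1735.6 in ctr, and endothelial markers (5 of 6) to 695.5 to 835.8 in aTX, 1421.8 to 1616.5 in sTX and 1592.2 to 1920.2 in ctr. Of 5 NK cell genes, 4 were higher in aTX and 1 in sTX against ctr. Among the syngeneic grafts sTX 1 was also the highest in the T cell (354.7), NK cell (120.2) and fibroblast and pericyte (3882.3) sums. The neutrophil sum was highest in sTX 3 (141). Of 3 measured dendritic cell genes, 2 were higher in aTX and 0 were called in sTX against ctr (1 at an unadjusted p below 0.05, limma), and of 3 B cell genes 0 were called in either (0 at an unadjusted p below 0.05). The podocyte genes (4 of 5 measured) were lower in aTX for 4 and in sTX for 3, and the distal nephron genes (6 of 6) were lower in aTX for 5, and higher for 2 and lower for 1 in sTX, against ctr. No marker was at 0. In bulk kidney RNA more cells of a type and more RNA per cell cannot be told apart, and the part of cell content in the receptor signals was not tested. The 3′ to 5′ ratio of actin, a measure of RNA quality, was 1.14 to 1.29 in aTX, 1.45 to 1.61 in sTX and 1.54 to 1.98 in ctr, and its part was not tested either.

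The other genes of the pathway were taken from lists of 86 genes, of which 75 were measured. In aTX against ctr 50 were higher and 11 lower, with a median log2 change of 1.10. In sTX against ctr 19 were higher and 10 lower (median 0.13), or 14 and 20 with each array centred on its median, and 6 and 5 with the run as a block. In aTX against sTX 48 were higher and 9 lower (median 0.96). For genes with several probe sets the brightest was used, and over all 14217 genes the share called higher was 27.7%, 16.1% and 19.8% in these comparisons and the share called lower 27.7%, 8.86% and 28.4%.

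Among the remaining receptors Tlr8, a second endosomal RNA sensor, was measured, with 81.9 ± 9.05 in aTX, 51.1 ± 10.6 in sTX and 19.3 ± 3.86 in ctr (SD, n = 5 each). The groups formed 3 separate steps, with log2 changes of 2.10 in aTX against ctr (adjusted p = 1.74e-09), 1.40 in sTX against ctr (adjusted p = 5.19e-06) and 0.70 in aTX against sTX (adjusted p = 0.00201, limma). Of 9 trafficking and accessory genes, 8 were higher in aTX than in ctr and 1 lower. Unc93b1, which carries nucleic acid receptors to endosomes, had 1070 ± 51.8 in aTX, 249 ± 56.5 in sTX and 138 ± 10 in ctr. Cd180 and its partner Ly86, which form a complex related to Tlr4 and Ly96, had log2 changes of 3.31 each in aTX against ctr. In sTX against ctr Ly86 was higher (1.01), and Cd180 was not called (0.01, adjusted p = 0.98). Cd36, a scavenger receptor that also assists Tlr2 with Tlr6, was the lower one (log2 change -1.28), and is named because of its value.

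Of 3 cytosolic adaptors other than Myd88, Ticam1 was higher in aTX than in ctr (log2 change 1.11), and none was called in sTX against ctr (1 at an unadjusted p below 0.05, limma). Of 13 kinases and ubiquitin ligases, 7 were higher and 2 lower in aTX against ctr, with a median log2 change of 0.24. The largest were Ripk1 at 1.16, Tbk1 at 1.10 and Map3k7 at 0.46, kinases that pass the signal on to NF-kappaB or to interferon regulatory factors. In sTX against ctr 2 were higher and 2 lower.

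Of 10 transcription factors at the end of the pathway, 7 were higher and 3 lower in aTX against ctr (median log2 change 1.48), and 3 were higher and 2 lower in sTX against ctr (median 0.03). Irf1 had 2710 ± 189 in aTX, 236 ± 106 in sTX and 95.5 ± 46.5 in ctr, and its log2 change was 4.93 in aTX against ctr and 1.32 in sTX against ctr. Irf7, which drives type I interferon genes behind Tlr7 and Tlr9, was higher in aTX (log2 change 2.94) and was not called in sTX against ctr (-0.16, adjusted p = 0.63). Nfkb2 was higher in both (2.03 and 0.47). Fos, an AP-1 subunit named because of its value, was lower in both graft groups, with 90.4 ± 16.2 in aTX and 32.7 ± 22.3 in sTX, against 337 ± 237 in ctr. Its ctr signals were uneven, from 183.8 to 739.7 with a median of 206.1. Irf3 and Jun, also named because of their values, were the others lower in aTX against ctr (log2 changes -0.63 and -0.39).

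**Figure D4:**
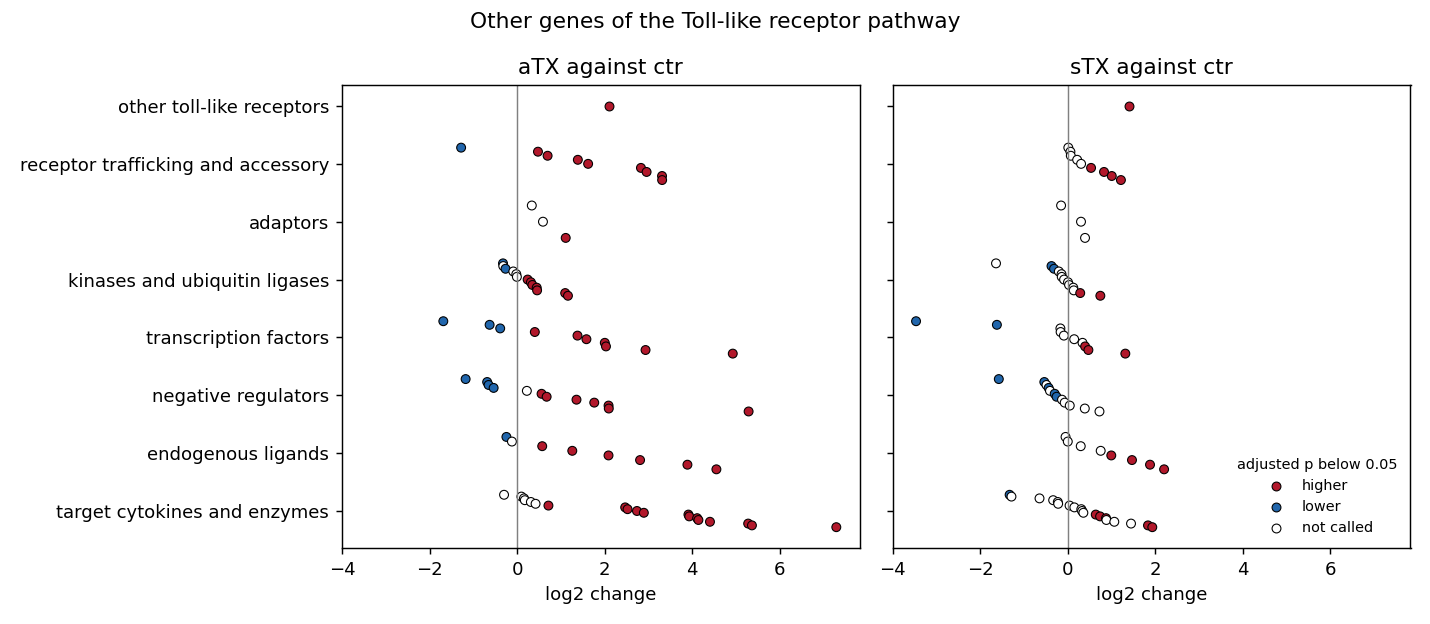
log2 changes of 75 other genes of the pathway, by list, in aTX against ctr (left) and sTX against ctr (right). Each point is 1 gene, red where called higher, blue where called lower and white where not called. In aTX 50 points are red, and in sTX 19.

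Of 12 negative regulators, 7 were higher and 4 lower in aTX against ctr, and 0 were higher and 5 lower in sTX against ctr (1 and 7 at an unadjusted p below 0.05, limma). Socs1, an inhibitor of cytokine and receptor signalling, had 259 ± 24.3 in aTX, 9.04 ± 8.89 in sTX and 8.98 ± 7.48 in ctr. Tnfaip3, the A20 deubiquitinase, was higher in aTX than in ctr (log2 change 2.10), and so was Irak3 (2.09), a kinase homologue that blocks signalling behind Myd88. Neither was called in sTX against ctr, where Irak3 was at 0.72 (adjusted p = 0.083) and Tnfaip3 at -0.41 (adjusted p = 0.063). Nfkbia, the NF-kappaB inhibitor named because of its value, fell in sTX to 203 ± 22.2, against 608 ± 86.1 in ctr, and was 704 ± 29.8 in aTX.

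Genes for tissue-derived ligands of Tlr2 and Tlr4 were higher in aTX than in ctr for 6 of 8 and lower for 1, and in sTX than in ctr higher for 4 and lower for 0 (0 lower at an unadjusted p below 0.05, limma). In aTX against sTX 4 were higher and 2 lower. The lower one in aTX against ctr was Hmgb1 (log2 change -0.24, adjusted p = 0.00114, limma), a nuclear protein released by dying cells, named because of its value. S100a9 and S100a8, which are also neutrophil genes and stand in the neutrophil list above, had log2 changes of 4.55 and 3.89 in aTX against ctr. In sTX against ctr they were 2.20 (adjusted p = 0.003) and 0.75 (adjusted p = 0.46). Their ctr signals, 7.28 ± 4.54 and 6.32 ± 4.12, lie far below the array median, so that these changes are imprecise. The matrix protein Tnc was higher in both, with 219 ± 15.1 in aTX, 118 ± 25.6 in sTX and 31.3 ± 2.8 in ctr.

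Of 19 cytokines and enzymes known as targets of the pathway, 13 were higher in aTX than in ctr and none lower (0 lower at an unadjusted p below 0.05, limma), and in sTX against ctr 5 were higher and 1 lower. Tnf had 112 ± 21.6 in aTX, 11.4 ± 5.63 in sTX and 3.14 ± 1.9 in ctr. Cxcl10, a chemokine for T cells, had 3740 ± 480 in aTX, 227 ± 207 in sTX and 118 ± 100 in ctr. Il10 had 90.6 ± 15.8 in aTX, 2.22 ± 2.26 in sTX and 0.64 ± 0.351 in ctr. The sTX and ctr signals of Tnf and Il10 lie far below the array median, so that their folds are imprecise. The 6 targets not called in aTX against ctr were Il12a, Il12b, Cxcl2, Ifnb1, Nos2 and Ptgs2. Ptgs2 was also the 1 lower in sTX than in ctr (log2 change -1.33).

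The genes with the most similar pattern over the 15 arrays were ranked by Pearson's r of log2 signals, as a description over arrays that share the group structure. They were C3h15orf48 (r = 0.998) and Ifi44l (0.997) for Tlr1, and Clec12a (0.994) and Fcer1g (0.994) for Tlr2. For Tlr4 they were Ch25h (0.987) and Fkbp1a (0.985), and for Tlr7 Fkbp1a (0.975) and C1qb (0.973). For Cd14 they were Tifa (0.997) and Fgl2 (0.997), for Ly96 Bnip2 (0.996) and Clec4a3 (0.992), and for Myd88 Cnn3 (0.99) and Slc28a2 (0.99). Candidates were 6968 genes, other than those followed here, with a geometric mean signal of at least 100 in a group.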

How the data were processed

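Total RNA of 15 rat kidneys was measured on Affymetrix Rat Genome 230 2.0 arrays. The authors deposited MAS5 signal intensities, summarised per probe set and scaled on each array to a common mean (100 without the highest and lowest 2%). Signals of 0 were set to 0.05 and values were taken to log2. The 31042 probe sets other than 57 controls were tested in R 4.3.3 with limma 3.58.1 (all 15 arrays in 1 fit, eBayes with an intensity trend) and adjusted by Benjamini and Hochberg. Folds are ratios of geometric means, and means ± SD are of linear signals. Per gene of the pathway and marker lists the probe set with the highest mean log2 signal was used. Genes named are all members and, per list, up to 3 called genes with the largest changes in aTX against ctr. The members and lists were chosen with earlier results of these data known. The number of arrays limits the precision. Runs were taken from the hybridisation times in the instrument records, as before noon or later. Each p-value weighs a group difference against the spread between kidneys within groups, pooled over the groups and moderated by limma. The procedure was tested on simulated data with planted changes and independent noise, without effects of run or of shared donors. Promoter letters came from RefSeq (GRCr8), and the motifs were chosen by hand for factors of the pathway. Tables and plots used Python 3.11.15, pandas 2.3.3 and matplotlib 3.10.9. Alternatives were other scalings, floors, filters, tests, the run or the number as a block, and each array left out.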

Additional observations from a re-analysis of the deposited data

Results flagged for a closer look

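In the control group Tlr1 was 59.6 in ctr 3 and at most 45.3 in the other 4 kidneys, a gap of 0.823 of the whole range. In the acute group Tlr7 was 53.4 in aTX 5 and at least 68.8 in the others, a gap of 0.746 of the range. Gaps and ranges were taken on log2 signals, and a gap above 0.71 of the range marked a kidney far from the rest of its group. Of 21 groups examined (7 genes in 3 groups) 2 passed, and chance marks about 1 in 20.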

How the results depend on the processing

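In aTX against ctr and in aTX against sTX all 189 of 189 recomputed values of the 7 genes kept their direction and call in each comparison. In sTX against ctr 171 of 182 kept their side of the threshold, 9 lost the call, 2 gained it and 177 were above 0, and no called value changed sign. The count of 5 genes higher in sTX than in ctr became 2 with the t-test of the methods at an unadjusted p below 0.001. Over all 31042 probe sets the higher calls went from 3539 to 1329 at that threshold. With the run as a block the count of 5 became 1. The cause was not tested. After Benjamini-Hochberg adjustment that t-test lost Tlr7 alone (adjusted p = 0.0519). Of the 75 pathway genes, 19 higher and 10 lower in sTX against ctr became 7 and 5 with the t-test at its own threshold, 10 and 7 after adjustment, 14 and 20 with median centring and 6 and 5 with the run as a block. The 9 lower in aTX against sTX became 5 with median centring. With 16 added to every signal the log2 change of Tlr7 was 0.50 in sTX against ctr and 1.41 in aTX against sTX. Leaving out an array moved no fold of the 7 genes by more than 1.19 times. Sample numbers come from titles alone, and 0 of 15 same-numbered pairs correlated above 0.1 once group means were removed. With the number as a replicate block 7, 5 and 7 genes were higher in aTX against ctr, sTX against ctr and aTX against sTX, the same counts as without it, and the replicate block changed no other call of the 7 genes. The alternatives for the pathway genes were chosen after seeing the data. Signals of Tlr7 in sTX and ctr and of Tlr2 and Tlr4 in ctr lie near or below the array median, which limits their folds.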
